A study of Mus musculus with 72 samples.

Results

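The promoter CpG island of Rab32 was examined in liver and spleen of mice homozygous for a targeted Rab32 allele and of wild-type mice. Its members are the 40 CpG sites of mm9 chromosome 10 between 10277589 and 10277983 that had at least 10 reads in all 4 island libraries, out of 299 such sites on the islands of the 6 lines in the series. DNA was treated with bisulfite, which turns unmethylated cytosines into uracil and leaves methylated ones, and the island was then amplified and sequenced. The level of a site is the percent of its reads that kept a cytosine.

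The 4 island libraries are knockout liver, knockout spleen, wild-type liver and wild-type spleen, all from C57BL/6N mice 7 weeks old. The knockouts are labelled Rab32 -/- and carry a tm1a allele from the Knockout Mouse Project: a LacZ reporter is placed under control of the gene's own promoter, and the neo cassette used for selection is retained. The wild-type mice carry neither cassette. There was 1 library per tissue and genotype, and the labels give no number of animals and no statement on pooling. Liver and spleen therefore stand in for the 2 replicates of a genotype, and p-values rest on the spread between these libraries. The spread between animals of a genotype cannot be measured. Intervals given for single libraries are 95% Wilson intervals for levels and Newcombe intervals for differences. They reflect counting error alone and take each read as a separate molecule. Amplified reads lacking molecular identifiers cannot be shown to be separate molecules, so the intervals may be too narrow.

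Rab32 encodes a small GTPase of the Rab family, which switches between a GTP-bound and a GDP-bound form and directs membrane traffic, and is known for its part in making lysosome-related organelles such as melanosomes. CpG islands are stretches rich in CpG dinucleotides that overlap many promoters and are usually free of methylation, and dense methylation of an island goes with a silent promoter. In a tm1a allele the reporter is transcribed from the same promoter as the targeted gene.

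The 40 sites span 394 bases, with gaps of 2 to 34 bases and a median gap of 6. The run of gaps between the 5 sites of highest coordinate (10277983, 10277981, 10277969, 10277963 and 10277955) is 2, 12, 6 and 8 bases, and the same run is found between the 5 CpGs in the first 50 transcribed bases of Rab32 in the RefSeq promoter table (GRCm38.p6, gene on the minus strand). The stretch is shown because it places the island relative to the gene's start; capitals mark the CpGs, read in the direction of transcription, chr10:10558158-10558187.
Rab32: CGCGcagtaggttcCGggtcCGgtgactCG
The C of the first CpG is base 21 of the transcript, counting the annotated start as 1, and that of the last is base 49. Of 32851 promoter sequences in the table, 9 hold this run of gaps on either strand, which is 0.0274%. The match is one of spacing and not of coordinates. Under it, all 40 sites lie downstream of the annotated start, since the remaining members have lower coordinates and the gene is read towards lower coordinates. The 250 bases before the start hold 5 CpGs and were not among the sites measured.

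Coverage changed in steps along the island. Knockout liver had 11092 to 65440 reads per site with a median of 25658.5, and wild-type liver 14897 to 97754 with a median of 35072.5. Knockout spleen had 5693 to 23429 reads with a median of 12826.5, and wild-type spleen 5251 to 75945 with a median of 16842. By these medians, knockout libraries were shallower than wild-type libraries of the same tissue, and spleen libraries shallower than liver libraries of the same genotype. The order of genotypes was reversed in spleen at the 8 sites from 10277756 to 10277827 and in liver at the 5 sites from 10277756 to 10277789. The part of this depth difference in the results was not tested. At these depths the interval of a site's level extended at most 0.744 percentage points to either side.

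**Figure D1:**
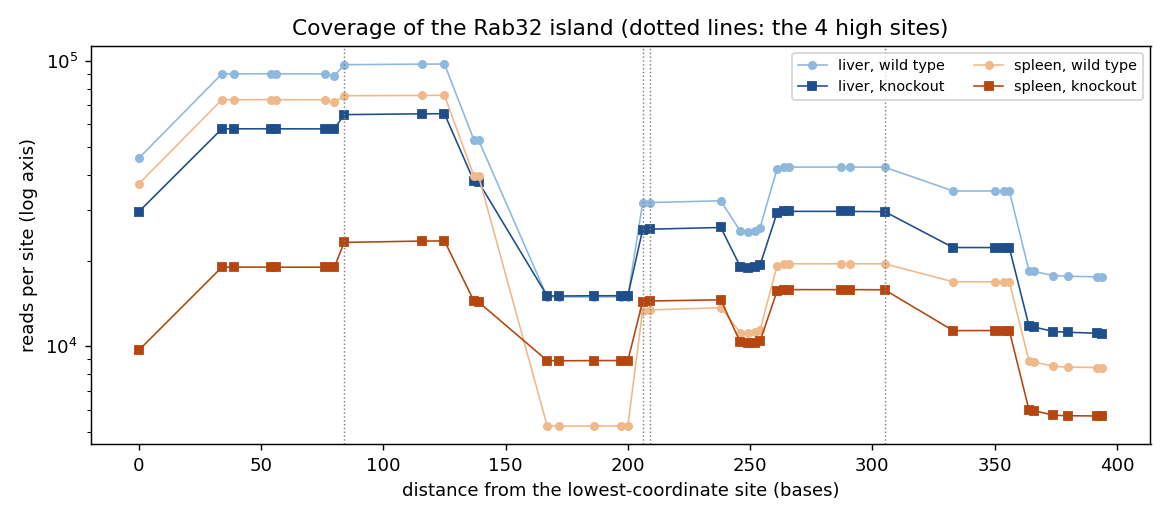
Reads per site (log axis) against distance from the lowest-coordinate site in bases, for the 4 island libraries, with dotted lines at the 4 sites of high methylation. Coverage rises at the first dotted line and at the second, and knockout spleen has between 5693 and 23429 reads at every site.

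Most of the island was nearly free of methylation in both tissues and both genotypes, and 4 sites stood far above the rest in the mean over the libraries. These 4 high sites, at 10277673, 10277795, 10277798 and 10277894, had a mean over the 4 libraries of at least 5%. The lowest of them had a mean of 14.0%, while the highest of the other 36 sites had 3.20%, so no mean lay near the threshold. Single libraries did come near it, with 4.97% at high site 10277673 in knockout liver and 5.46% at 10277835, an other site, in knockout spleen. The 4 high sites took 10.8% to 12.9% of a library's reads at the 40 sites and gave 66.7% to 84.8% of its methylated calls. Averaged over all 40 sites, the level was 2.04% in knockout liver, 2.32% in wild-type liver, 2.56% in knockout spleen and 2.80% in wild-type spleen. The median site was at 0.548%, 0.374%, 1.04% and 0.629% in the same order.

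**Figure D2:**
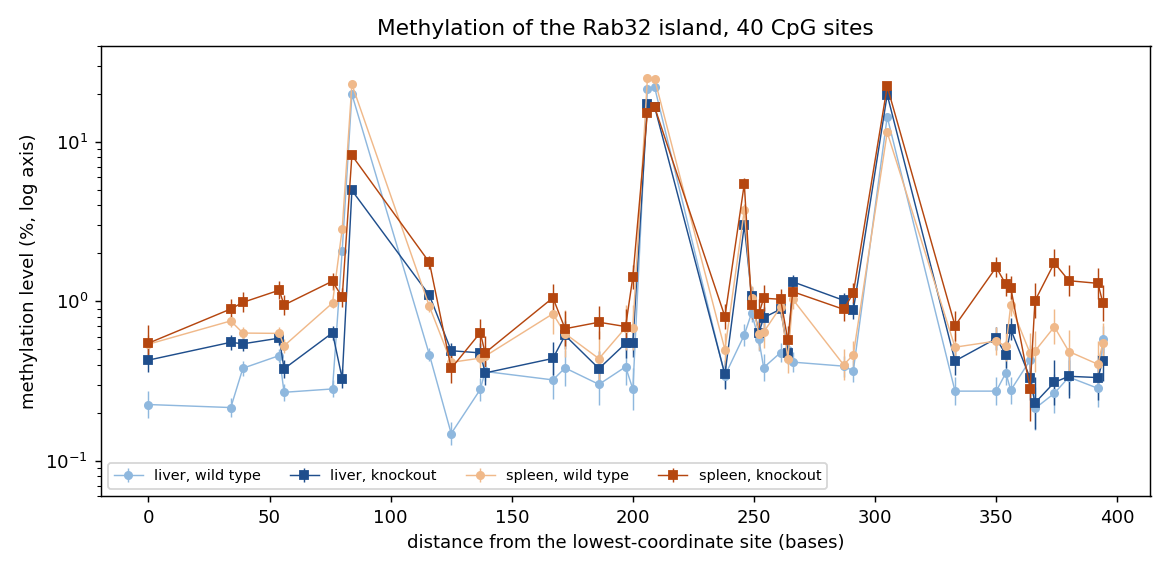
Methylation level of each of the 40 CpG sites (percent, log axis) against distance from the lowest-coordinate site in bases, in the 4 island libraries; bars are 95% Wilson intervals. Peaks at 84, 206, 209 and 305 bases are the 4 high sites, with wild type above knockout at the first 3 of them and knockout above wild type at the last.

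The mean difference between knockout and wild type had opposite signs over the 4 high sites and over the rest of the island. Over all 40 sites, the knockout mean was 2.30% ± 0.370 (SD, n = 2 tissues) and that of wild type 2.56% ± 0.346 (SD, n = 2), a difference of -0.261 ± 0.0242 points. This difference was -0.278 in liver and -0.244 in spleen. Over the 36 other sites, the knockout level was 0.876% ± 0.338 and the wild-type level 0.596% ± 0.251, a difference of 0.281 ± 0.0865 points. At these sites the knockout was higher by 0.220 points in liver and 0.342 in spleen. At the 4 high sites the knockout was lower on average, with 15.1% ± 0.660 against 20.2% ± 1.20, a difference of -5.13 ± 0.537 points. This mean leaned on 10277673, without which the other 3 averaged -1.90 points, and 1 of the 4, 10277894, was higher in knockouts. The negative mean over the island rested on 1 site, 10277673, without which it was 0.113 points, an alternative chosen after seeing the data. With only 2 tissues, sign-flip permutation (exact, two-sided) cannot go below p = 0.5, which it gave for the island mean.

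Each site was tested in edgeR's quasi-likelihood model, fitted to the 2 kinds of calls with terms for tissue and genotype and with Benjamini-Hochberg adjustment over the 40 sites. At an adjusted p under 0.05, 7 of 40 sites passed (17.5%), of which 5 were higher in knockouts (12.5%) and 2 lower (5%). The count was 6 in limma, with 4 higher and 2 lower, and 0 in edgeR without the tissue term, where 6 sites had an unadjusted p under 0.05. Each site has 1 residual degree of freedom, the disagreement of the genotype difference between the tissues. Both tools therefore borrow the spread from the other sites, and neighbouring sites are read on the same molecules. In limma the borrowing was complete, with an SE of 0.41 at every site, so its order of sites is that of the log2 odds ratio alone. The SE of edgeR differed between sites, but neighbouring sites of like coverage had nearly the same SE. It was 0.332 at 10277855, where knockout minus wild type was 0.911 points in liver and 0.119 in spleen. At 10277876, with 0.623 points in liver and 0.491 in spleen, it was 0.336. This SE is the size of the log2 odds ratio over the square root of the test's F statistic, so it restates the test.

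The 2 sites lower in knockouts lie 4 bases apart. Site 10277673 had 4.97% in knockout liver, 8.24% in knockout spleen, 19.9% in wild-type liver and 23.0% in wild-type spleen. Both knockout levels lay below both wild-type levels, by 15.0 points in liver and 14.7 in spleen, a mean difference of -14.8 ± 0.159 (SD, n = 2). It was the largest fall of the island, with a log2 odds ratio of -1.99 ± 0.56 (SE, edgeR adjusted p = 0.0101). Site 10277669 had 0.328% in knockout liver and 1.06% in knockout spleen, against 2.09% and 2.84% in wild type. In points, its difference of -1.77 ± 0.0184 was almost the same in both tissues. Its log2 odds ratio was -2.07 ± 0.51 (SE, edgeR adjusted p = 0.00663). As a share of the wild-type level, the fall was larger in liver than in spleen at both 10277673 and 10277669. Coverage also changed at these positions. From 10277665 to 10277669 the reads went from 90263 to 88760 in wild-type liver and from 73263 to 71777 in wild-type spleen, while in knockouts they went from 57907 to 57923 and from 18953 to 18961. From 10277669 to 10277673 they rose in all 4 libraries, by between 3923 and 8478 reads. The part of these coverage changes in the result was not tested.

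The 5 sites higher in knockouts all lie in the upper-coordinate part of the island, the side that the spacing match puts nearest the annotated start. So do 25 of the 40 sites tested, and the placement was not tested. Sites did not pass in the order of the log2 odds ratio alone, and the SE, which is derived from the test statistic, differed along the island. Site 10277705 of the lower-coordinate part, named to show this, had a log2 odds ratio of 1.09 ± 0.57 (SE, edgeR adjusted p = 0.207). Site 10277855 passed with a smaller ratio, 0.93 ± 0.33 (SE). The libraries had 23407 to 97677 reads at 10277705 and 15814 to 42536 at 10277855. The part of coverage in the SE was not tested. Site 10277835 had 3.01% in knockout liver and 5.46% in knockout spleen, against 0.616% and 3.72% in wild type. The knockout was higher in each tissue, but wild-type spleen exceeded knockout liver, so the genotypes overlap. The mean difference was 2.06 ± 0.466 points (log2 odds ratio 1.44 ± 0.44, SE, edgeR adjusted p = 0.0158), and this was the highest of the 36 other sites. Sites 10277876 and 10277880, 4 bases apart, showed little difference between tissues. At 10277876 the levels were 1.02% and 0.892% in knockout liver and spleen and 0.393% and 0.400% in wild type, a difference of 0.557 ± 0.0929 points (edgeR adjusted p = 0.00663). At 10277880 they were 0.878% and 1.13% in knockouts and 0.367% and 0.462% in wild type, a difference of 0.587 ± 0.108 points (edgeR adjusted p = 0.00663). At both sites the knockout levels lay above both wild-type levels.

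Site 10277939 had 0.585% in knockout liver, 1.64% in knockout spleen, 0.274% in wild-type liver and 0.564% in wild-type spleen. The knockout was higher by 0.312 points in liver and 1.07 in spleen, with a log2 odds ratio of 1.33 ± 0.39 (SE, edgeR adjusted p = 0.0110). Site 10277855 had 1.33% and 1.15% in knockout liver and spleen against 0.416% and 1.03% in wild type. Its difference came mainly from liver, with 0.911 points against 0.119 in spleen, where the counting interval of -0.0978 to 0.341 points includes 0. It passed in edgeR (adjusted p = 0.0455) and not in limma (adjusted p = 0.120).

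The other 3 high sites did not pass the test. Site 10277894 had 19.8% in knockout liver and 22.3% in knockout spleen against 14.4% and 11.5% in wild type. It was the only high site where both knockout levels lay above both wild-type levels, and had the largest positive difference of the island, 8.11 ± 3.81 points (log2 odds ratio 0.85 ± 0.32, SE, edgeR adjusted p = 0.0576). Site 10277795 had 17.3% in knockout liver and 15.3% in knockout spleen against 21.4% and 25.1% in wild type. Its neighbour 10277798, 3 bases away, had 16.6% and 16.5% in knockouts against 22.0% and 24.8% in wild type. At both, knockout levels lay below wild-type levels in each tissue without overlap, with mean differences of -6.98 ± 4.06 points (edgeR adjusted p = 0.210) and -6.82 ± 2.05 points (edgeR adjusted p = 0.216). Coverage stepped up at 10277795, being 1.61 to 2.53 times that of the site before it, with the highest ratio in wild-type spleen; it changed by less at 10277798 and 10277894. The part of this step in the levels was not tested.

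**Figure D3:**
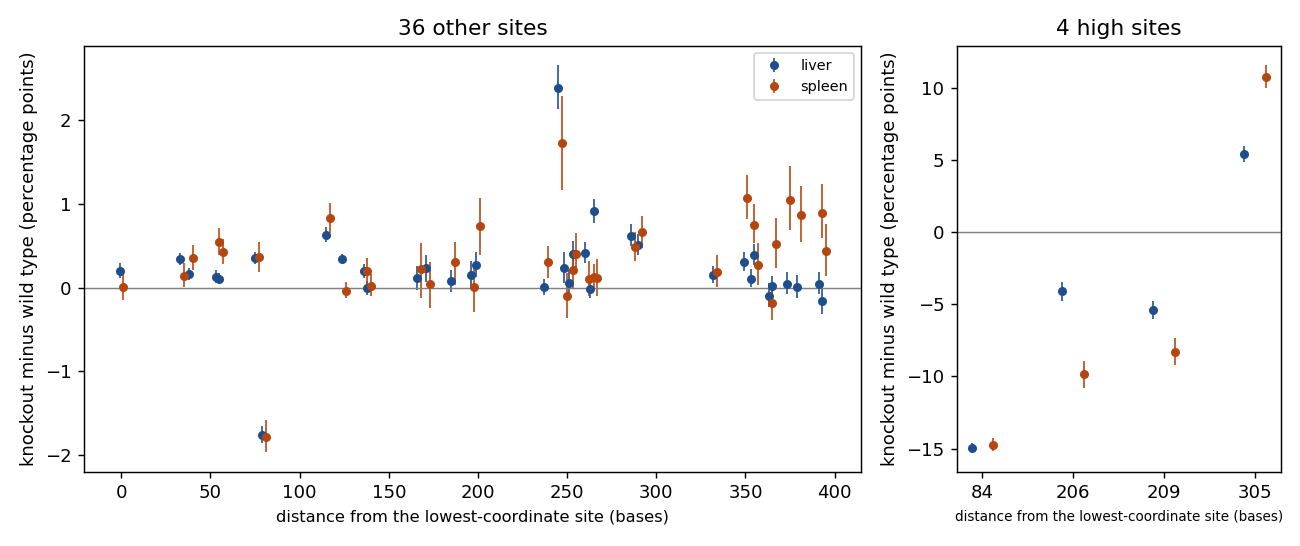
Knockout minus wild-type level in percentage points for the 36 other sites (left, against distance from the lowest-coordinate site in bases) and the 4 high sites (right, labelled with that distance, not to scale), in liver and spleen; bars are 95% Newcombe intervals. Most points on the left lie above 0, with 10277669 at -1.77 in the mean of both tissues, and 3 of 4 high sites lie below 0 in both tissues.

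Small differences of one direction ran through the rest of the island. Bisulfite conversion was not measured, and its part in differences of this size was not tested. Among the 36 other sites, the knockout was above wild type in 31 in liver, in 32 in spleen and in 29 in both. It was below wild type in both tissues at 2, 10277669 and 10277953, which are named because so few were of this kind. The remaining 5 had opposite signs in liver and spleen, and at none of them did both counting intervals leave out 0. Counting intervals lay above 0 in both tissues at 17 of all 40 sites (42.5%) and below 0 in both at 4 (10%). Both knockout levels exceeded both wild-type levels at 9 of 40 sites (22.5%) and lay below both at 5 (12.5%). The median log2 odds ratio of knockout against wild type over the 40 sites was 0.62. Before adjustment, 10 sites had an unadjusted p under 0.05 in edgeR, 8 higher and 2 lower.

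The difference was also averaged on each side of the middle coordinate, a contrast that was not tested. Below the middle coordinate of the island, the 14 other sites had knockout minus wild-type means of 0.0800 points in liver and 0.116 in spleen, a mean that includes the fall at 10277669. Above it, the 22 other sites had 0.308 points in liver and 0.486 in spleen. Without 10277669 and 10277835, the sites with the largest fall and rise of the 36, the order of the sides was lost in liver, with 0.221 points below and 0.209 above, while spleen had 0.262 below and 0.426 above. The 6 sites of highest coordinate, from 10277953 to 10277983, were grouped after their values were seen. They averaged 1.11% in knockout spleen, 0.515% in wild-type spleen, 0.328% in knockout liver and 0.351% in wild-type liver. Knockout spleen had the highest level at 5 of the 6 sites and the lowest at 10277953 (0.284%), at a coverage of 5693 to 5993 reads, the lowest of that library. Whether the genotype difference differs between tissues could not be tested, because a tissue by genotype term leaves no residual degrees of freedom. The last site, 10277983, had 0.424% in knockout liver and 0.579% in wild-type liver, and 0.984% and 0.549% in spleen, so the sign differed between tissues (edgeR adjusted p = 0.797). The first, 10277589, had 0.428% and 0.226% in knockout and wild-type liver and 0.547% and 0.539% in spleen (edgeR adjusted p = 0.291).

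**Figure D4:**
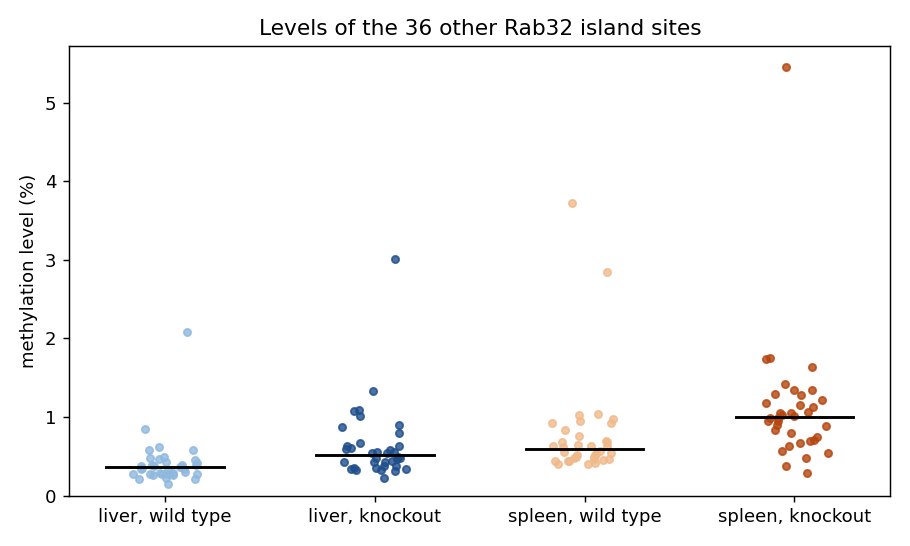
Methylation levels (percent) of the 36 other sites in each of the 4 island libraries, 1 point per site, spread sideways at random; black lines are medians. The medians are 0.360% in wild-type liver, 0.516% in knockout liver, 0.594% in wild-type spleen and 0.997% in knockout spleen.

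Spleen had higher levels than liver at most sites. The part of bisulfite conversion in these small differences was not tested either. Among the 36 other sites, spleen exceeded liver at 31 in knockouts and 34 in wild type, by means of 0.478 and 0.355 points. The mean level of these sites was 0.418% in wild-type liver, 0.638% in knockout liver, 0.773% in wild-type spleen and 1.12% in knockout spleen. Wild-type liver was the lowest library at 31 of the 36 sites and knockout spleen the highest at 30. A level above 1% was found at 1 of these sites in wild-type liver, 5 in knockout liver, 4 in wild-type spleen and 18 in knockout spleen. Both spleen levels exceeded both liver levels at 22 of all 40 sites (55%), and at 0 sites was it the reverse. At the 4 high sites no such order held, since the tissues overlapped at each of them.

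In the same edgeR model, 4 of 40 sites (10%) passed as higher in spleen (adjusted p under 0.05), against 0 as lower. These were 10277835, 10277939, 10277945 and 10277963, of which the last 2 are named because the count is small. Site 10277963 had 0.693% in wild-type spleen and 1.74% in knockout spleen against 0.265% and 0.311% in liver (log2 odds ratio 1.95 ± 0.58, SE, edgeR adjusted p = 0.0199). Site 10277945 had 0.946% and 1.22% in wild-type and knockout spleen against 0.277% and 0.668% in liver (log2 odds ratio 1.32 ± 0.39, SE, edgeR adjusted p = 0.0199). Site 10277835 had a log2 odds ratio of 1.75 ± 0.44 (SE, edgeR adjusted p = 0.0123) and 10277939 one of 1.28 ± 0.39 (SE, edgeR adjusted p = 0.0199) for spleen against liver. Limma found 13 sites higher in spleen and 0 lower, and edgeR without the genotype term 0 in either direction, with 5 sites at an unadjusted p under 0.05. No site lower in spleen had an unadjusted p under 0.05 in edgeR or limma.

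Over all 40 sites, levels along the island correlated more closely within a genotype than between genotypes. Over the 40 sites, Pearson's r was 0.984 between the 2 knockout libraries and 0.990 between the 2 wild-type libraries, and 0.882 between genotypes in liver and 0.834 in spleen. These values describe 40 sites that share reads, and the 4 high sites weigh most in them. Over the 36 other sites, r was 0.820 between knockouts and 0.636 between wild-type libraries, and 0.114 between genotypes in liver and 0.758 in spleen, so the same order did not hold there.

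The island difference of Rab32 did not pass a test against those of the other 5 lines. Its 2 pairs averaged -0.261 points and the 22 pairs of other lines 1.04 (two-sided exact permutation p = 0.217 for the difference in means, tissues of a line taken as independent). The other pairs ranged from -0.863 to 8.71 with a median of 0.305. The highest were Lyplal1 kidney with 8.71 points and Lyplal1 liver with 4.68. Among the liver and spleen pairs of other lines, in Arap liver the difference was -0.863 points, in Dstn 0.224 in liver and 0.215 in spleen, in Ninj1 0.0311 in liver and 0.330 in spleen, and in Lyplal1 liver 4.68. With pooled reads, Ninj1 had -0.927 points in liver and -0.909 in spleen, both further below 0 than Rab32 with -0.603 and -0.227.

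The LacZ reporter in the same knockout DNA was far more methylated than the island. Over 170 reporter sites with at least 10 reads in both libraries, the mean level was 11.0% in liver and 25.9% in spleen, and spleen was higher at 164 of them. The knockout island was also higher in spleen, with 2.56% against 2.04%, and at the 36 other sites 1.12% against 0.638%. The wild-type island, in mice without the reporter, had the same order. It had 2.80% in spleen against 2.32% in liver, and at the 36 other sites 0.773% against 0.418%. With 2 tissues no relation between reporter and island can be tested.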

How the data were processed

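Per the labels' protocols, genomic DNA was bisulfite treated, and the amplicons were made into libraries using an RNA kit, starting at the step that adds adapters. The submitters' processing notes name Bowtie2, Bismark and mm9, without versions. The deposited files have no header; each row gives a site's percent methylated and its counts of reads called methylated or unmethylated. The deposited percent equalled the share of the counts. The counts are raw, with no removal of duplicate reads given in the sources used here, and unequal amplification of methylated strands can shift a level. Bisulfite conversion was not measured here.

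Libraries were grouped by title. The Rgcc wild-type libraries carry the Rab32 mapping accession in their labels but list chromosome 14 positions, and were used as Rgcc. The 4 Rab32 libraries held 526204 to 1759027 calls. The 14 rows outside the members, with 361 calls and 0 methylated, were left out. Other islands used sites within 2000 bp of the median position covered by 10 or more reads in each of the line's libraries.

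Site counts were tested with edgeR 4.0.16 in R 4.3.3 and limma 3.58.1 (logit with an offset of 0.5 calls), at an adjusted p of 0.05, after both were tested on simulated data. The simulated sites were drawn independently and without a tissue difference, unlike the sites measured. Library terms hold coverage, and tissue pairs the genotypes because each tissue gave 1 library per genotype; the labels do not say whether tissues share animals. Python 3.11.15, numpy 2.4.6, pandas 2.3.3 and scipy 1.17.1 did the rest. Sites named one by one were those passing between genotypes, those with a mean of at least 5%, both extremes of the difference and the first and last site. The members, lists and rules were chosen with earlier results of these data known. Promoter sequence came from RefSeq (GRCm38.p6), where 1 entry matched Rab32; no mm9 genome was used here.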

Additional observations from a re-analysis of the deposited data

How the results depend on the processing

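The island mean difference between knockout and wild type, -0.261 points, was -0.243 with no coverage minimum, -0.415 with pooled reads, and -0.278 to -0.244 leaving out each tissue. It turned positive with the median over sites (0.292), on the log2 odds scale (0.226) and over the sites with a mean under 5% (0.281). It was 0.113 without site 10277673, which was chosen after seeing the data. The last 2 values follow from the sites left out, the 4 high sites averaging -5.13 points or the site with the largest fall. The median and the log2 odds scale give less weight to a few large falls in points. Without a replicate block (no tissue term) the 7 sites passing between genotypes became 0, and without a genotype term the 4 passing between tissues became 0 (edgeR). Of the 7, only 1 had a mean difference of at least 5 points, and of the 4, 0 had. Limma gave 6 and 13. Its SE was 0.41 at every site while that of edgeR differed between sites, and the part of this in the counts was not tested. A minimum of 100 reads left the same 40 sites, and with no minimum the counts were 7 and 4. Leaving out a tissue leaves no residual degrees of freedom, so the site counts were not recomputed there. Against other lines, the permutation p ranged from 0.217 to 0.652. The LacZ level was 11.0% in liver and 25.9% in spleen, and 9.08% and 22.7% with no minimum, 10.5% and 26.1% with a minimum of 100 reads, and 10.6% in liver with pooled reads. Without the other sites with the largest fall and rise, chosen after seeing the data, the upper minus the lower side of the island was -0.0122 points in liver, against 0.228 with them. The 2 tissues per genotype and the read depth both limit these results, and were not compared.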
